A study of Rattus norvegicus with 30 samples.

Results

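The comparison set primary rat hepatocytes exposed to 10 mM sodium valproate for 24 h against cells that received water, the vehicle, for the same time. It comprised 10 of the 30 samples of the study, 5 in each group, chosen by their dose and time labels. The study also has cells given 0.5 mM valproate for 24 h and cells given 10 mM, 0.5 mM or water for 48 h, 5 samples each. All groups were cryopreserved hepatocytes of male Sprague Dawley rats of no stated genotype or age, plated on collagen under a Matrigel overlay and dosed on day 3 of culture. Each sample was 1 well of a 6-well plate, which the submitters call an independent culture. The labels do not state the number of donor animals, and the p-values therefore reflect differences among wells, which may be technical. RNA was hybridised to 1-colour rat expression arrays, and each value is a probeset's signal intensity on a linear scale. For a gene with several probesets, the brightest was used.

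Valproate, an anticonvulsant, is a short fatty acid with a branched chain. It inhibits histone deacetylases of class I, enzymes that remove acetyl groups from histones, and is activated to a coenzyme A ester that is oxidised in hepatocyte mitochondria. In the liver it is known for lowering mitochondrial fatty acid oxidation and for steatosis. The gene groups described here are other than those of bile acids, amino acid breakdown, fatty acid oxidation, P450 enzymes and the cell cycle.

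Of 11604 genes tested, 3611 (31.1%) were higher and 2896 (25%) were lower in the 10 mM cultures than in the water cultures. A gene was called when its adjusted p was below 0.05 in limma, a linear model fitted to log2(signal + 16). The fit took the probesets that passed a filter on low values. Most calls were of modest size. Changes below 1 on the log2 scale made up 2601 of the higher and 2144 of the lower calls, and 35 rises and 16 falls reached 3 or more. The 5 values at 10 mM all lay above the 5 in water for 2940 genes (25.3%), and all lay below them for 2355 genes (20.3%). The median change over the tested genes was 0.07. Centring the arrays on ribosomal protein genes raised that median by 0.10, so changes of about this size depend on the scaling.

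Array quality and other cell types were examined first. The median signal of an array ranged from 388 to 434 at 10 mM, against 355 to 365 in water, although the authors' scaling had set the trimmed mean of every array to the same level. The actin 3′ to 5′ ratio, a measure of RNA integrity, was 1.38 to 1.55 on the log2 scale at 10 mM, against 1.37 to 1.70 on 4 water arrays and 2.76 on water replicate 3. Without that replicate the calls numbered 3606 higher and 2746 lower. The summed signals below cover all markers of a type on the array, also those under the filter on low values. They hold 9 hepatocyte, 8 macrophage, 8 endothelial, 10 stellate cell, 5 cholangiocyte and 7 lymphocyte markers. Of 9 tested hepatocyte markers, 1 was called higher and 7 lower, and their summed signal was 342300 to 413900 at 10 mM against 414500 to 508600 in water. The 6 tested macrophage markers held 4 lower and no higher calls, with sums of 7761 to 8935 at 10 mM against 10450 to 11220 in water. Most of that sum was Lyz2, with a median of 6358 at 10 mM against 7767 in water. It changed by -0.28, C1qb by -2.12, C1qa by -1.165, Clec4f by -0.605 and Csf1r by -0.576. Cd68 went the other way, by 0.40, and was not called. Among 5 endothelial markers 2 were lower, and the sums were 1331 to 1672 at 10 mM against 2503 to 3586 in water. Much of that drop lay in Fcgr2b, with a median of 154 at 10 mM against 1370 in water. Lyve1 changed by -1.06, Tek by -0.63, Kdr by -0.06 and Stab2 by 0.83. Among 7 stellate cell markers 2 were lower, with sums of 3038 to 3525 at 10 mM against 3928 to 4859 in water. Rgs5 changed by -1.94, Col3a1 by -0.73 and Col1a1 by -0.26. The other tested members went the other way, Thy1 by 0.725, Dcn by 0.27, Reln by 0.25 and Des by 0.115, and none was called higher. The cholangiocyte sum was 6381 to 7275 at 10 mM against 7197 to 8743 in water, with 1 of 2 tested markers lower. Nearly all of that sum was Epcam, with a median of 6501 at 10 mM against 7513 in water. The other tested marker, Cftr, changed by 0.06. The lymphocyte sum was 759 to 1110 at 10 mM against 636 to 1127 in water, with 1 of 2 tested markers higher. In such bulk samples fewer cells of a type and less RNA per cell cannot be told apart, and the part of these cells in the results below was not tested.

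The stretches upstream of gene starts differed in composition between genes that rose and genes that fell. The 6 sequences below show that difference, and an exception to it, in genes taken up again further on. They were chosen after their values had been seen. Pfn2, Stmn1 and Id1 rose at 10 mM, and Urad, Inhbe and Hjv fell. Each line gives the 250 bases before the gene start, read 5′ to 3′ on the gene's strand, from RefSeq on build GRCr8, with the dinucleotide CG in capitals.
Pfn2 (chr2:144222937-144223186, minus strand): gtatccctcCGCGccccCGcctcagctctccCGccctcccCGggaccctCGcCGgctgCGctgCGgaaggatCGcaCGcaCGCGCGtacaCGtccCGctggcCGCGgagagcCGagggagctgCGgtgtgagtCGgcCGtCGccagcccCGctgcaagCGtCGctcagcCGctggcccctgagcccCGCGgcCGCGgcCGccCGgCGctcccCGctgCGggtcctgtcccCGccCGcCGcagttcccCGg
Stmn1 (chr5:151964929-151965178, plus strand): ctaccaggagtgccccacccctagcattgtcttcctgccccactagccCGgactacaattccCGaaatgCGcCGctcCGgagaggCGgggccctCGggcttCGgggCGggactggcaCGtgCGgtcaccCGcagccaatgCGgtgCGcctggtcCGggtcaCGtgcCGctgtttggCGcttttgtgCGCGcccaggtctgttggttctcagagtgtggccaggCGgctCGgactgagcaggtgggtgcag
Id1 (chr3:161671314-161671563, plus strand): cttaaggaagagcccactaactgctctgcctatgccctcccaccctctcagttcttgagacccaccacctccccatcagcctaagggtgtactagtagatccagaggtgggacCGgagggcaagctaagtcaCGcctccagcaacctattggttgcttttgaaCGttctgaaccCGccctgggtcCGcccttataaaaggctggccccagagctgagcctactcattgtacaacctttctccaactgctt
Urad (chr12:12745138-12745387, plus strand): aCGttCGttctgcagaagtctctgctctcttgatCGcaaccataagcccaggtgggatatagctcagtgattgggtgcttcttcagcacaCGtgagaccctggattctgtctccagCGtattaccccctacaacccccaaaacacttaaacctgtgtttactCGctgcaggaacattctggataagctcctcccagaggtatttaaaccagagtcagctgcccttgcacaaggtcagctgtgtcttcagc
Inhbe (chr7:65064520-65064769, minus strand): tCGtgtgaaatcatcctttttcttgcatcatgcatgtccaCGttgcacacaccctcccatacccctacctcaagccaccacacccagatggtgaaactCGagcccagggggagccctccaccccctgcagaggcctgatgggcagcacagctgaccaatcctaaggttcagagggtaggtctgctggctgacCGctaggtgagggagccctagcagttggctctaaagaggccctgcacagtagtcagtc
Hjv (chr2:186754551-186754800, plus strand): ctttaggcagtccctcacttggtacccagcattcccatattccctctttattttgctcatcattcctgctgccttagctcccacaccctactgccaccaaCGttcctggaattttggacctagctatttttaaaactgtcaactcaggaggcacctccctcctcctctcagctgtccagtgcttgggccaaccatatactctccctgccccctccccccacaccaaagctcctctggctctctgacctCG

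The Pfn2 stretch held 40 CG dinucleotides and that of Stmn1 held 22, whereas those of Urad, Inhbe and Hjv held 6, 4 and 2. Id1 rose with only 5, so the difference is one of shares and not of every gene. Over the window from 250 bases before to 50 after the start, 9666 tested genes had a sequence in the table. The ratio of observed to expected CG had a median of 0.80 in the 3035 genes called higher, 0.74 in the 2425 called lower and 0.72 in the 4206 not called. Among the 616 called genes that fell by 1 or more the median was 0.59, and among the 91 that fell by 2 or more it was 0.37. The 126 genes that rose by 2 or more had a median of 0.73. A ratio of at least 0.6 was found in 80.2% of the genes called higher and 66.6% of those called lower, beside 63.9% of those not called and 69.7% of all tested genes. Among changes of 2 or more the shares were 68.2% for rises and 25.3% for falls, so the large rises lay near the share of all tested genes.

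The same windows were also searched for short motifs on both strands. The letters TATAAA occurred in 5.57% of the genes called higher and 8.04% of those called lower, beside 8.70% of those not called and 14.3% of all 27457 windows in the table. Among changes of 2 or more they occurred in 7.14% of rises and 16.5% of falls, against 7.55% of all tested genes. GGGCGG occurred in 68.0% of higher and 57.5% of lower genes, beside 58.1% of those not called and 34.9% of all windows. Among changes of 2 or more it occurred in 63.5% of rises and 34.1% of falls, against 61.0% of all tested genes. CCAAT was found in 46.8% of the large rises and 29.7% of the large falls, against 37.9% of tested genes and 37.7% of all windows. CACGTG was found in 9.52% of the large rises and 8.79% of the large falls, against 9.52% of tested genes and 6.65% of all windows. TGACGTCA was found in 1.59% of the large rises and 1.10% of the large falls, against 3.09% of tested genes and 1.91% of all windows. These are matches of letters and not sites of binding. In each of 4 classes of level in water the median ratio was larger for higher than for lower genes. In the dimmest class it was 0.73 for higher, 0.48 for lower and 0.56 for uncalled genes. In the brightest class it was 0.818 for higher and 0.748 for lower genes, and uncalled genes were above both at 0.825.

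**Figure D1:**
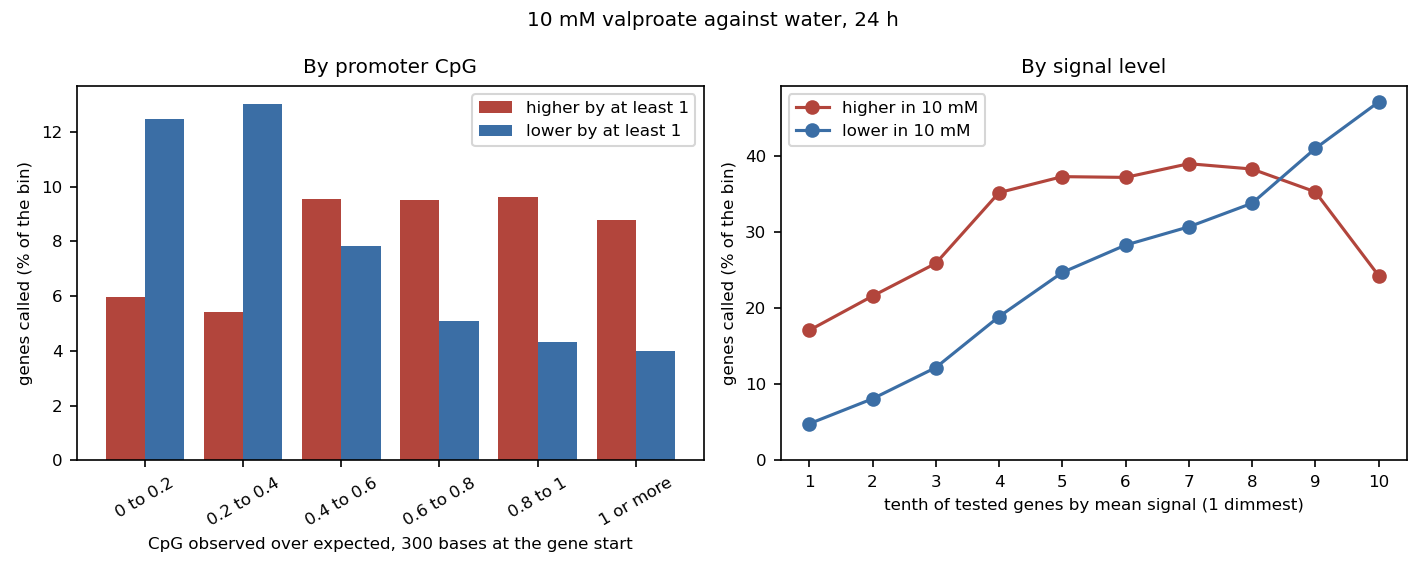
Left, the share of genes in each bin of the CG observed over expected ratio that rose (red) or fell (blue) by at least 1. These changes are on the log2 scale and include uncalled genes, although the axis is labelled as calls. Right, the share called at any size in each of 10 equal bins of the tested genes by mean signal. Large falls took 12.5% of the genes in the lowest CG bin and 4.01% in the highest, and calls of lower genes grew to 47.1% in the brightest bin, with 4.82% in the dimmest.

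The level of a gene also went with its direction. The tested genes were split into 10 bins of equal size by mean signal. In the dimmest bin 17.1% were called higher and 4.82% lower, with a median change of 0.16. In the brightest bin 24.3% were higher and 47.1% lower, with a median change of -0.13.

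Over all tested genes the change ranged between -4.07 and 5.42. The genes named next had the 12 largest rises and 12 largest falls once genes known from earlier results of these data were set aside. Groups without overlap were a condition for these genes and for the rises and falls picked from the gene lists below. A lack of overlap in them is therefore no separate result. Many of the rises were in genes with little signal in water. Golm2, a Golgi membrane protein, had signals of 1055, 909, 902, 1130.3 and 1152 in the 10 mM cultures, against 85.3, 58.4, 50.3, 41.5 and 62.2 in the water cultures. The groups did not overlap and the log2 change was 3.81 ± 0.47 (SE, adjusted p = 4.09e-08). Its water values lay below the level of the filter on low values, as did those of loricrin, so the size of such changes is uncertain. Loricrin, the main protein of the cornified envelope of skin, had signals of 1118, 1399.9, 1105, 1207 and 1398 in the 10 mM cultures, against 82.8, 106, 120.4, 73.1 and 75.7 in the water cultures. Its change was 3.57 ± 0.45 (adjusted p = 5.45e-08), and every 10 mM array was far above every water array. C2h4orf46 had signals of 3424, 3641, 3329, 3461 and 3518 in the 10 mM cultures, against 302, 161, 274, 458 and 318 in the water cultures, a change of 3.52 ± 0.23 (adjusted p = 3.39e-14). Abhd3, a phospholipase of phosphatidylcholines with medium-length chains, had signals of 2996, 2299, 2515, 2489 and 2406 in the 10 mM cultures, against 150.2, 193, 185, 337 and 203 in the water cultures. It rose by 3.52 ± 0.18 (adjusted p = 1.34e-16), and its dimmer probeset by 1.75. Eno2, the enolase of neurons, averaged 3968 ± 443 at 10 mM and 356 ± 96.7 in water (SD, n = 5 each), a change of 3.45. Pkib, an inhibitor of protein kinase A, averaged 4055 ± 410.2 at 10 mM and 423 ± 88.6 in water, a change of 3.23. Qpct, which forms the pyroglutamate at the start of peptides, changed by 3.38, the transcription factor gene Pax9 by 3.43, Armcx2 by 3.51, Mogat2, an acyltransferase of triglyceride synthesis in the gut, by 3.38, Tmem14a by 3.30 and Dnajb3 by 3.27. All 6 had water values below the filter level.

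Among the falls chosen in the same way, several ended in signals near background. Magix, an X-linked gene with a PDZ domain, had signals of 21.7, 19.3, 128, 9.32 and 23 in the 10 mM cultures, against 500.3, 598, 644, 365 and 507 in the water cultures. It fell by 3.55 ± 0.41 (adjusted p = 1.01e-08), and the third 10 mM array lay above the other four. Olr59, named as an olfactory receptor, had signals of 269, 253, 61.6, 105 and 108 in the 10 mM cultures, against 1634, 1779.6, 941, 1849 and 1824 in the water cultures. The change was -3.35 ± 0.35 (adjusted p = 1.32e-09) and the groups did not overlap. Slc28a2, a sodium-coupled carrier of purine nucleosides, had signals of 31.6, 13.4, 29.5, 121 and 232 in the 10 mM cultures, against 622, 546, 925, 666 and 809 in the water cultures. Its change of -3.28 ± 0.36 (adjusted p = 4.43e-09) came with a wide spread among the dim 10 mM values. Odad4, a part of the docking complex of ciliary dynein arms, had signals of 75.5, 70.1, 161, 200.3 and 111 in the 10 mM cultures, against 969, 989.6, 1513, 1230.1 and 1285 in the water cultures, a change of -3.20 ± 0.35 (adjusted p = 2.68e-09). Among brighter genes, Tkfc, the triokinase of fructose breakdown, averaged 1201 ± 156 at 10 mM and 9476 ± 564 in water. Its change was -2.97, against -1.15 on its dimmer probeset. Eppk1, epiplakin, which binds keratin filaments, averaged 1602 ± 256 at 10 mM and 12350 ± 2122 in water, a change of -2.93. Sult6b2, of the sulfotransferase family, averaged 784 ± 131 at 10 mM and 6644 ± 391 in water, a change of -3.07. Fcgr2b, an Fc receptor of liver sinusoidal endothelium, changed by -3.03. It is itself among the endothelial markers summed above, and much of the drop of that sum lay in it. Esm1, secreted by endothelial cells, changed by -2.98 toward values below the filter level. Dapp1, an adaptor of B cell signalling, changed by -3.0, Dstl1 by -3.16 and AA926063 by -2.95. Dapp1 and Dstl1 also ended below the filter level.

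**Figure D2:**
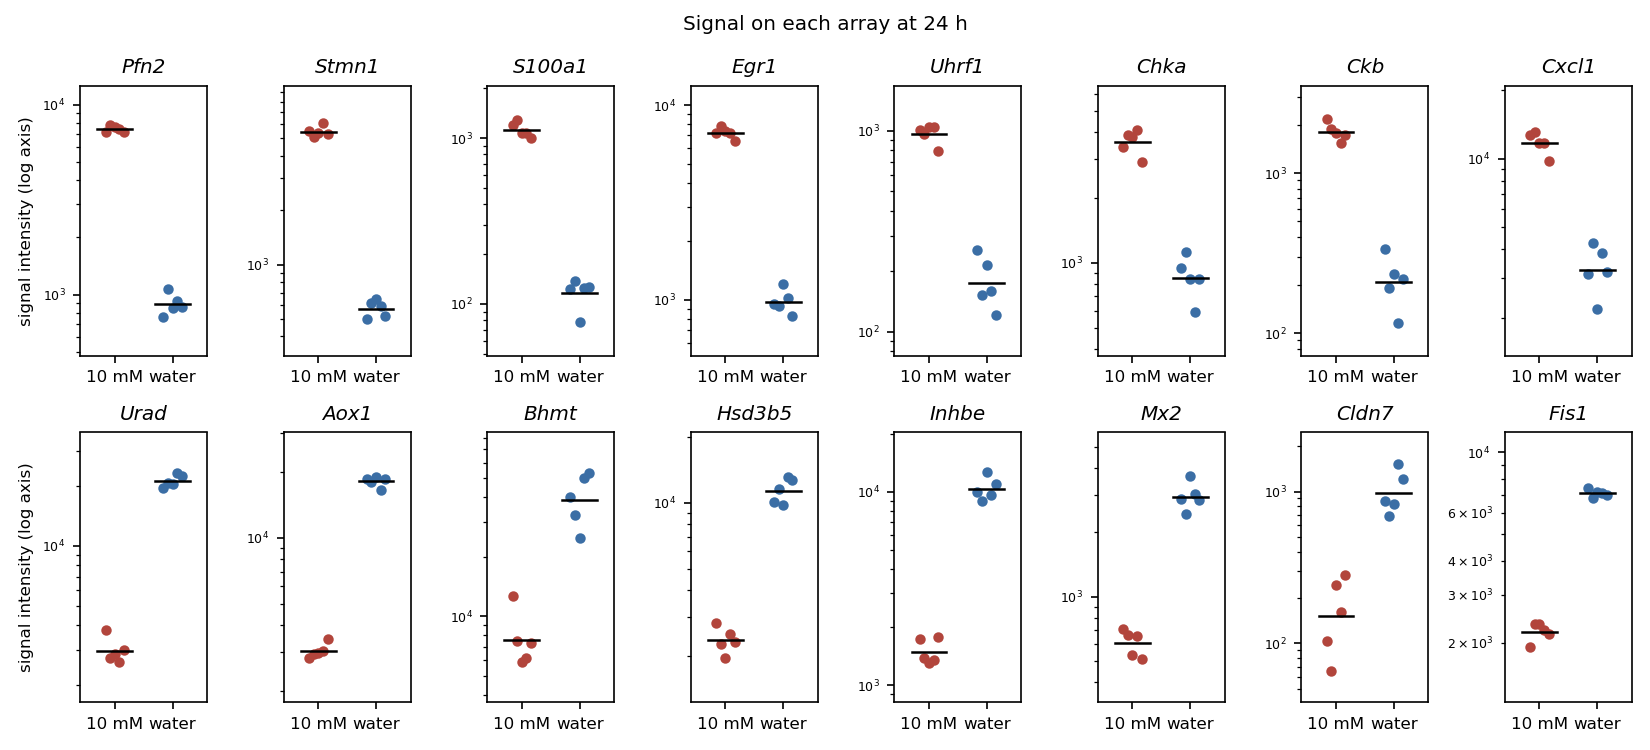
Signal intensity on each array at 24 h (log axis) for 8 genes that rose, top, and 8 that fell, bottom, with the 5 cultures at 10 mM valproate in red at the left of each panel and the 5 water cultures in blue at the right. Bars mark the mean on the log2(signal + 16) scale. The groups overlap in none of the 16 panels, which was a condition for choosing these genes.

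In all, 40 gene lists with 1266 tested symbols were described, of which 383 symbols were higher and 410 lower. Over all genes 31.1% were higher and 25% lower. The lists with the largest shares of falls were those of alcohol, aldehyde and ester enzymes (67.7%), folate (63.2%) and steroid hormones (60.0%). The list of annexins, S100 proteins and galectins (60.0%) and that of cell junctions (56.2%) were also among them. The largest shares of rises were in the lists of polycomb and DNA methylation (55.9%) and of polyamines and creatine (52.9%). Next came histone and high mobility group genes (52.6%), sphingolipids (47.8%) and BMP and TGF-beta signalling (45.7%). Some genes belong to several lists, and no test was made of a list.

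**Figure D3:**
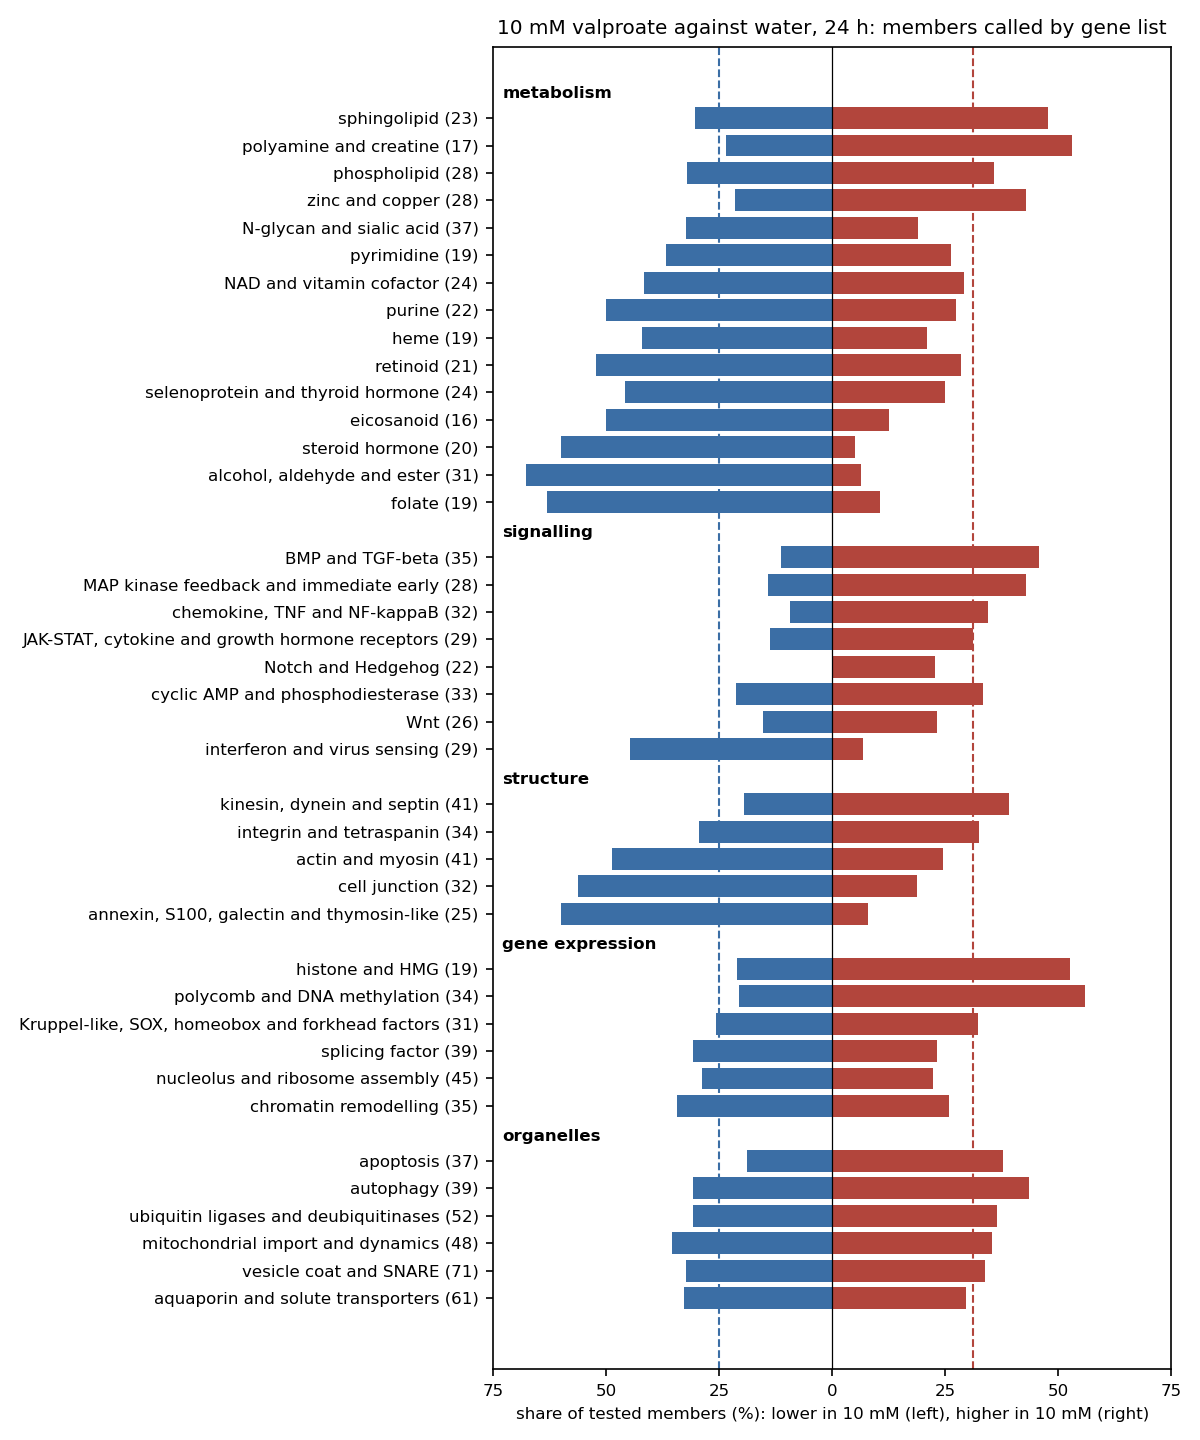
Share of the tested members of each gene list called higher at 10 mM (red, right) or lower (blue, left) than water at 24 h, with the number tested in brackets. Dashed lines mark the shares of all 11604 genes, 31.1% higher and 25% lower. Within each heading the lists run from the highest to the lowest median change.

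Of 22 purine genes 11 fell (50.0%) and 6 rose (27.3%), with a median change of -0.17. Rodents turn urate into allantoin, and Urad catalyses the final step of that conversion. Urad had signals of 3756, 2708, 2851, 2603 and 2983 in the 10 mM cultures, against 19501, 20666, 20536, 23224 and 22378 in the water cultures. The groups were far apart, with a change of -2.84 ± 0.14 (adjusted p = 9.69e-17). Uox, urate oxidase, which acts before it, averaged 10600 ± 926 at 10 mM and 49810 ± 4118 in water, a change of -2.23. In the opposite direction, Prps1, a synthase of the ribose donor of nucleotides, averaged 7232 ± 167 at 10 mM and 3280 ± 242 in water and rose by 1.14, and Ada, adenosine deaminase, rose by 1.13. Of 19 pyrimidine genes 7 fell (36.8%) and 5 rose (26.3%). The median of -0.06 changed sign with quantile normalization and with ribosomal centring. Dpys, dihydropyrimidinase, had signals of 954, 820.3, 874, 886 and 952 in the 10 mM cultures, against 4331, 5016, 4768, 5242 and 5764 in the water cultures, a change of -2.46 ± 0.11 (adjusted p = 6.76e-18). Upb1, beta-ureidopropionase, which follows Dpys in the pathway, averaged 2540 ± 262 at 10 mM and 10570 ± 1386 in water, a change of -2.05. The salvage enzymes Upp1, uridine phosphorylase, and Uck2, uridine-cytidine kinase, rose by 1.55 and 0.99. Cmpk1, a kinase of pyrimidine monophosphates, had a difference of -0.11 (adjusted p = 0.313), and its groups overlapped.

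One-carbon genes fell in 12 of 19 cases (63.2%) and rose in 2 (10.5%), with a median of -0.60. Bhmt, which remakes methionine from homocysteine with betaine, had signals of 12641, 7447, 5849, 6161 and 7293 in the 10 mM cultures, against 40366, 32701, 24753, 50068 and 53245 in the water cultures. It changed by -2.35 ± 0.28 (adjusted p = 1.83e-08), with a wide spread in both groups that did not bridge the gap. Aldh1l1, which oxidises formyl-tetrahydrofolate, averaged 3986 ± 94.6 at 10 mM and 15960 ± 1082 in water, a change of -2.0. Ahcy, which splits adenosylhomocysteine, averaged 30340 ± 1481 at 10 mM and 45750 ± 4405 in water, a change of -0.59. The 2 that rose were Ggh, which trims folate polyglutamates, by 0.46 and Ahcyl2 by 0.39. With the mean of its probesets, Ahcyl2 was no longer called. Of 19 heme genes 8 fell (42.1%) and 4 rose (21.1%), with a median of -0.17. Blvra, which reduces biliverdin to bilirubin, had signals of 370.4, 324, 193, 429.7 and 140.1 in the 10 mM cultures, against 1993, 2021, 1727, 1561 and 1487 in the water cultures, a change of -2.62 ± 0.20 (adjusted p = 1.14e-12). Fech, ferrochelatase, the last enzyme of heme synthesis, averaged 1919 ± 236 at 10 mM and 4920 ± 708 in water, a change of -1.35. Urod, an earlier enzyme of the same pathway, averaged 16580 ± 485 at 10 mM and 8881 ± 549 in water and rose by 0.90, and Abcb6, a porphyrin carrier, rose by 0.87. Haptoglobin, Hp, which binds free hemoglobin, had a difference of -0.13 (adjusted p = 0.0909) and its groups overlapped.

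Retinoid genes fell in 11 of 21 cases (52.4%) and rose in 6 (28.6%), with a median of -0.19. Dhrs3, which reduces retinal to retinol, had signals of 1267, 894, 879, 1013 and 1019 in the 10 mM cultures, against 4049, 3884, 4597, 4363 and 4381 in the water cultures. Its change was -2.06 ± 0.10 (adjusted p = 3.98e-17). Dhrs4, another retinal reductase, averaged 2754 ± 225 at 10 mM and 10600 ± 1679 in water, a change of -1.93, while its dim other probeset gave 0.03. Aldh1a2, which makes retinoic acid, and Rdh11, a retinal reductase, rose by 0.89 and 0.86. Rbp4, the plasma carrier of retinol, averaged 56800 ± 3710 at 10 mM and 70040 ± 6964 in water, a small fall of 0.30 on the log2 scale.

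Lipid mediators and membrane lipids moved in both directions. Of 28 phospholipid genes 10 rose (35.7%) and 9 fell (32.1%). Chka, choline kinase, the first step of phosphatidylcholine synthesis from choline, had signals of 3417, 3876, 3811, 4097 and 2932 in the 10 mM cultures, against 946, 1126, 843, 593 and 841 in the water cultures. It rose by 2.06 ± 0.20 (adjusted p = 3.38e-10) without overlap. Pla2g15, a lysosomal phospholipase, averaged 4075 ± 167 at 10 mM and 1204 ± 173 in water and rose by 1.76. By contrast Pemt, which makes phosphatidylcholine from phosphatidylethanolamine, averaged 1488 ± 181 at 10 mM and 3942 ± 481 in water, a change of -1.40. Pcyt2, of phosphatidylethanolamine synthesis, changed by -1.39. Chpt1, which completes phosphatidylcholine, changed by -0.54, with -1.24 and -0.61 on its other probesets. Sphingolipid genes rose in 11 of 23 cases (47.8%) and fell in 7 (30.4%), with a median of 0.28. Sphk1, which makes sphingosine 1-phosphate, had signals of 996, 747, 768, 899.7 and 510.2 in the 10 mM cultures, against 309, 165, 422, 231 and 232 in the water cultures, a change of 1.51 ± 0.24 (adjusted p = 2.77e-06). Sgpl1, the lyase that breaks that product down, rose by 1.10. Cers2, the ceramide synthase for very long chains, changed by -0.74. The falls of Asah2, neutral ceramidase (-0.75), and Degs1, which forms ceramide (-0.31), were seen on the brightest probeset. With the mean of their probesets Asah2 gave 0.15 and Degs1 gave 0.0006.

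Eicosanoid genes fell in 8 of 16 cases (50.0%) and rose in 2 (12.5%), with a median of -0.23. Slco2a1, the prostaglandin carrier, had signals of 1067, 1356, 1029.9, 1058 and 1104 in the 10 mM cultures, against 3303, 3447, 4001, 2735 and 3309 in the water cultures. Both of its probesets fell, by 1.56 ± 0.13 on the brighter (adjusted p = 4.71e-12) and with a change of -1.59 on the dimmer. Ptgr1, which inactivates leukotriene B4 and prostaglandins, averaged 22870 ± 1098 at 10 mM and 54490 ± 5002 in water, a change of -1.25. The 2 rises were Lta4h, which forms leukotriene B4, by 0.92 and Ptgr2 by 0.35, against 1.28 on the other probeset of Ptgr2. Steroid hormone genes fell in 12 of 20 cases (60.0%) and rose in 1 (5.00%), with a median of -0.43. Hsd3b5, a hydroxysteroid dehydrogenase of male rodent liver, had signals of 2809, 2272, 1958, 2513 and 2314 in the 10 mM cultures, against 10102, 11515, 9809.5, 13108 and 12744 in the water cultures. The change was -2.26 ± 0.15 (adjusted p = 3.09e-14). Akr1d1, the steroid 5-beta reductase, averaged 4183 ± 659 at 10 mM and 13170 ± 3112 in water, a change of -1.63, against -2.58 on its other probeset. Hsd17b12, which also takes part in fatty acid elongation, was the 1 rise, of 0.23. Hsd11b1, which reactivates glucocorticoids, changed by -0.23 (adjusted p = 0.00934), its groups overlapped and the call was lost with quantile normalization.

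Enzymes of alcohols, aldehydes and esters held the largest share of falls among the 40 lists, with 21 of 31 (67.7%) lower and 2 (6.45%) higher and a median of -0.47. Aox1, aldehyde oxidase, had signals of 2825, 2954, 2959, 3029 and 3431 in the 10 mM cultures, against 18610.4, 18026, 18899, 16446 and 18582 in the water cultures. Its change was -2.57 ± 0.14 (adjusted p = 9.05e-16), and the spread within each group was narrow. Ces1d, a carboxylesterase of the liver, averaged 2130 ± 262 at 10 mM and 9739 ± 1462 in water, a change of -2.18. Adh1c, alcohol dehydrogenase, averaged 53090 ± 3816 at 10 mM and 68590 ± 5682 in water, a change of -0.37. The 2 rises were Aldh1b1, a mitochondrial aldehyde dehydrogenase, by 1.47, and Maoa, monoamine oxidase, by 0.58. Among NAD and vitamin genes 10 of 24 fell (41.7%) and 7 rose (29.2%). With ribosomal centring the counts were 8 lower and 9 higher. Ttpa, which loads vitamin E into lipoproteins, had signals of 4768, 4346, 4185, 4429.9 and 4683 in the 10 mM cultures, against 16861, 18236, 15829, 18518 and 17399 in the water cultures. It changed by -1.95 ± 0.09 (adjusted p = 3.76e-17) and its other probeset by -1.24. Qprt, which makes NAD precursors from tryptophan, averaged 5686 ± 183 at 10 mM and 18640 ± 1382 in water, a change of -1.71, against -0.98 on its dimmer probeset. Vkorc1l1, a vitamin K reductase, and Nmnat1, which makes NAD in the nucleus, rose by 0.75 and 0.74. Gc, the vitamin D carrier of plasma, had a difference of -0.11 (adjusted p = 0.199) on its brightest probeset against -0.65 on the dimmer.

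Polyamine and creatine genes rose in 9 of 17 cases (52.9%) and fell in 4 (23.5%), with a median of 0.18. Ckb, the brain form of creatine kinase, had signals of 2193, 1883, 1781, 1538 and 1743 in the 10 mM cultures, against 337, 190.1, 234, 115 and 217 in the water cultures. The change was 3.04 ± 0.37 (adjusted p = 2.25e-08) with no overlap. Smox, which oxidises spermine, averaged 3982 ± 332 at 10 mM and 736 ± 215 in water and rose by 2.45. Sat1, which acetylates spermidine and spermine, averaged 62660 ± 4504 at 10 mM and 49740 ± 5282 in water and rose by 0.34. Gamt, the last enzyme of creatine synthesis, averaged 10890 ± 679.8 at 10 mM and 25080 ± 1886 in water, a change of -1.20, and Agmat, agmatinase, changed by -1.44. Selenoprotein and thyroid hormone genes fell in 11 of 24 cases (45.8%) and rose in 6 (25%). Their median was -0.20 and was 0.00 with quantile normalization. Thrsp, a thyroid hormone-responsive protein of lipogenesis, had signals of 10784, 10219.5, 10397, 10747 and 11580.4 in the 10 mM cultures, against 27838, 34169.6, 20255, 35981 and 43481 in the water cultures. Its 3 probesets changed by -1.54 ± 0.19 (adjusted p = 2.75e-08), -1.63 and -2.05. Selenop, the plasma selenium carrier, averaged 50780 ± 1691 at 10 mM and 66360 ± 5887 in water, a change of -0.38, against -0.87 on its dimmer probeset. Selenon changed by -1.22. Selenos, of endoplasmic reticulum protein disposal, averaged 19000 ± 997 at 10 mM and 7895 ± 551 in water and rose by 1.27, and Selenom rose by 1.22.

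Metal carriers rose in 12 of 28 cases (42.9%) and fell in 6 (21.4%), with a median of 0.14. Slc30a2, a zinc exporter, had signals of 1365, 1554, 1426, 1178 and 1612 in the 10 mM cultures, against 453, 567, 546, 486 and 412 in the water cultures. It rose by 1.5 ± 0.12 (adjusted p = 2.5e-12), and by 3.71 on a probeset that was dim in water. Atp7a, a copper pump, averaged 2713 ± 283 at 10 mM and 1030 ± 223 in water and rose by 1.41. Slc30a10, a manganese exporter, averaged 871 ± 109 at 10 mM and 2469 ± 422 in water, a change of -1.48 at 24 h, and Slc39a10, a zinc importer, changed by -0.85. Ceruloplasmin, Cp, had a difference of 0.10 (adjusted p = 0.33) with overlapping groups on its brightest probeset, while the others gave 0.16, which was not called, and -0.50, which was called lower. N-glycan genes fell in 12 of 37 cases (32.4%) and rose in 7 (18.9%). With ribosomal centring 9 were lower and 10 higher. Man2a1, a Golgi mannosidase, had signals of 4677, 4668, 4272, 4528 and 4949 in the 10 mM cultures, against 11559, 11337, 10796, 11490.4 and 12007 in the water cultures, a change of -1.31 ± 0.10 (adjusted p = 5.31e-13), and its other probesets gave -0.75 and -1.07. St6gal1, which adds terminal sialic acid, averaged 11430 ± 378 at 10 mM and 27180 ± 2365 in water, a change of -1.25, and its dim probeset gave -0.04. Nans, which makes sialic acid, and Dad1, a subunit of the oligosaccharyltransferase, rose by 0.91 (1.38, called, and 0.20, not called, on the other probesets of Nans) and 0.76, whereas Cmas, which activates sialic acid, changed by -0.43.

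Signals of the BMP and TGF-beta family act through serine kinase receptors and SMAD proteins. In this list 16 of 35 genes rose (45.7%) and 4 fell (11.4%), with a median of 0.43. Among ligands, Bmp2 averaged 1808 ± 133 at 10 mM and 614 ± 119.8 in water and rose by 1.55, whereas Inhbe, an activin subunit made in the liver, had signals of 1726, 1381, 1303, 1342 and 1767 in the 10 mM cultures, against 9917, 8944, 12660.3, 9614 and 10926 in the water cultures. The fall of Inhbe was the largest change of the list, -2.78 ± 0.13 (adjusted p = 3.18e-17). Hjv, hemojuvelin, the co-receptor through which BMPs raise hepcidin, averaged 2358 ± 311 at 10 mM and 11250 ± 987 in water, a change of -2.25 (adjusted p = 2.28e-18). Id1, a target of SMADs that blocks helix-loop-helix factors, averaged 4386 ± 173 at 10 mM and 727 ± 38.9 in water and rose by 2.57 (adjusted p = 2.39e-15).

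Of 26 Wnt genes 6 rose (23.1%) and 4 fell (15.4%), or 2 with ribosomal centring, and none changed by 1 or more. Their median of 0.04 changed sign with quantile normalization. Axin2, a feedback inhibitor and target of the pathway, had signals of 896, 754, 853, 534 and 691 in the 10 mM cultures, against 306, 364, 513, 421 and 352 in the water cultures. It rose by 0.90 ± 0.17 (adjusted p = 2.81e-05) with every 10 mM value above every water value. Znrf3, which removes Wnt receptors, rose by 0.74, and the receptor Fzd1 changed by -0.72. Ctnnb1, beta-catenin, averaged 30190 ± 1211 at 10 mM and 35670 ± 2273 in water, a change of -0.24 that was not called with quantile normalization, with ribosomal centring or with the mean of its probesets. Dvl1, which relays the signal, changed by -0.58, and by -1.31, also called lower, on another tested probeset. With the mean of all its probesets Dvl1 was not called. Of 22 Notch and Hedgehog genes 5 rose (22.7%) and none fell in limma. The median of 0.13 was 0.00 with quantile normalization, under which 2 members fell. Sufu, the inhibitor of GLI factors, had signals of 471, 606, 722, 802 and 581 in the 10 mM cultures, against 252, 239, 293, 112 and 326 in the water cultures. Its change was 1.38 ± 0.40 (adjusted p = 0.0043) with a wide error. Hey1, a Notch target, rose by 1.10. Numb had a difference of 0.20 (adjusted p = 0.109) with overlapping groups on its brightest probeset, and its other probeset rose by 0.69.

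Cytokine receptor genes rose in 9 of 29 cases (31.0%), the same share as all genes, and fell in 4 (13.8%). Socs7, of the suppressors of cytokine signalling, had signals of 2181, 2236, 2175, 1811 and 1862 in the 10 mM cultures, against 592, 673, 580.2, 527 and 759.6 in the water cultures. This probeset changed by 1.69 ± 0.12 (adjusted p = 3.45e-13), while its 2 dimmer probesets gave -0.09 and 0.26 and were not called. Jak2, a kinase of these receptors, rose by 1.05. Ghr, the growth hormone receptor, averaged 2810 ± 216 at 10 mM and 5662 ± 294 in water, a change of -1.01, against -0.24 on its other probeset. Ifngr1, a receptor of interferon gamma, changed by -0.50, and Jak1 had a difference of -0.24 (adjusted p = 0.0521).

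Immediate early and MAP kinase feedback genes rose in 12 of 28 cases (42.9%) and fell in 4 (14.3%), with a median of 0.32. Egr1, a zinc finger factor induced by growth signals, had signals of 7155, 7830.1, 7402, 7175 and 6505 in the 10 mM cultures, against 951, 926, 1201, 1021 and 826 in the water cultures. It rose by 2.86 ± 0.12 (adjusted p = 2.26e-18), with little spread within either group. Junb averaged 1690 ± 303 at 10 mM and 456 ± 51.3 in water and rose by 1.84. Its relative Jund averaged 29750 ± 919.9 at 10 mM and 29070 ± 1772 in water, and its change of 0.04 was not called. Myc averaged 2878 ± 216 at 10 mM and 7402 ± 614 in water, a change of -1.36. Dusp3, a phosphatase of MAP kinases, averaged 3195 ± 247 at 10 mM and 12800 ± 2407 in water. Its change was -1.98 on this probeset, against -0.48 on its dimmer one.

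Interferon and virus sensing genes fell in 13 of 29 cases (44.8%) and rose in 2 (6.90%), with a median of -0.26. With ribosomal centring 7 fell. Mx2, an antiviral GTPase, had signals of 706, 663, 535, 655 and 515 in the 10 mM cultures, against 2867, 2445, 3658, 3016 and 2849 in the water cultures. Its change was -2.24 ± 0.26 (adjusted p = 1.19e-08), and a probeset near background gave -0.04. Ifit2, which inhibits translation of viral RNA, averaged 1575 ± 148 at 10 mM and 7021 ± 491 in water, a change of -2.15, and -1.92 on its other probeset. Ifi27 changed by -0.19 (adjusted p = 0.0133), a call lost with quantile normalization and with ribosomal centring and without 10 mM replicate 1 or water replicate 5. The macrophage marker sums given above were lower in the same cultures, although Cd68 went the other way. The part of macrophages in these falls was not tested. Chemokine, TNF and NF-kappaB genes rose in 11 of 32 cases (34.4%) and fell in 3 (9.38%), or 6 with quantile normalization, with a median of 0.22. Cxcl1, a neutrophil attractant, had signals of 12799, 13077, 11772, 11769.6 and 9817 in the 10 mM cultures, against 3111, 4272, 2179, 3868 and 3174 in the water cultures. It rose by 1.86 ± 0.14 (adjusted p = 9.24e-13). Cxcl10, which attracts T cells and is itself induced by interferon, averaged 1086 ± 129 at 10 mM and 368 ± 45.3 in water and rose by 1.52. Tnfrsf1a, a TNF receptor, changed by -0.64 and Tnfsf10, the death ligand TRAIL, by -1.32. Chuk, a kinase that frees NF-kappaB, had a difference of 0.04 (adjusted p = 0.702).

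Cyclic AMP and hormone receptor genes rose in 11 of 33 cases (33.3%) and fell in 7 (21.2%), near the background in both directions. Avpr1a, the vasopressin receptor of hepatocytes, had signals of 789, 757, 1029.8, 906 and 1025 in the 10 mM cultures, against 259, 269, 12.9, 242 and 168 in the water cultures. It changed by 2.50 ± 0.38 (adjusted p = 1.7e-06), and water replicate 3 lay well below the other four, which makes the size uncertain. Gcgr, the glucagon receptor, averaged 589 ± 81.7 at 10 mM and 2275 ± 130.2 in water, a change of -1.93. Pde8a, which breaks down cyclic AMP, changed by -1.69 on its brighter probeset against 0.01 on a dim one. Prkar2b, a regulatory subunit of protein kinase A, rose by 1.17. Gnas, the stimulatory G protein, averaged 16620 ± 744 at 10 mM and 20030 ± 640.3 in water, a change of -0.27, and had the other sign with the mean of its probesets.

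Actin and myosin genes fell in 20 of 41 cases (48.8%) and rose in 10 (24.4%), with a median of -0.30, and Pfn2 had the largest rise among them. Pfn2, the profilin of brain, which binds actin monomers, had signals of 7204, 7825, 7587, 7451 and 7187 in the 10 mM cultures, against 761, 1075, 854, 927 and 860.0 in the water cultures. The change was 3.04 ± 0.11 (adjusted p = 3.2e-20), and 4.40 on its dimmer probeset. Pdlim7, an adaptor of actin filaments, rose by 2.43. Mylk, myosin light chain kinase, averaged 1631 ± 189 at 10 mM and 8368 ± 487 in water, a change of -2.35, against an uncalled -0.66 on its other probeset, and Acta1, skeletal muscle actin, changed by -1.35. Tmsb4x, thymosin beta 4, which holds actin monomers, averaged 36570 ± 1694 at 10 mM and 53460 ± 8018 in water, a change of -0.53. Kinesin, dynein and septin genes rose in 16 of 41 cases (39.0%) and fell in 8 (19.5%), with a median of 0.10. Stmn1, stathmin, which takes microtubules apart, had signals of 5521, 5066, 5355, 6095 and 5302 in the 10 mM cultures, against 499, 609, 643, 588 and 519 in the water cultures. It rose by 3.23 ± 0.12 (adjusted p = 3.39e-19), without overlap and with a narrow spread. Kif1a, a motor of synaptic vesicles, changed by 2.15, with water values below the filter level. Septin9 changed by -0.97 and Dynll2, a dynein light chain, by -0.38. For Kif16b the brightest probeset changed by -1.20 and 3 others gave 0.80, 0.42 and 0.77, so its direction is not settled.

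Annexins, S100 proteins and galectins fell in 15 of 25 cases (60.0%) and rose in 2 (8.0%), with a median of -0.44. S100a1, a calcium sensor of muscle, was an exception, with signals of 1198, 1293, 1078, 1070.0 and 1005 in the 10 mM cultures, against 124, 139, 77.7, 125 and 126 in the water cultures. It rose by 3.11 ± 0.19 (adjusted p = 4.82e-15) from water values below the filter level, so the size is uncertain. The other rise was Anxa5, by 0.26, a call lost without water replicate 5. Anxa8 averaged 1025 ± 90.3 at 10 mM and 4296 ± 1012 in water, a change of -2.03. Anxa2, which links membranes to actin, averaged 25200 ± 2004 at 10 mM and 37690 ± 2141 in water, a change of -0.58, and Anxa4 changed by -1.08 on its brightest probeset against -0.25 on the other. Cell junction genes fell in 18 of 32 cases (56.2%) and rose in 6 (18.8%), with a median of -0.38. Cldn7, a claudin of tight junctions, had signals of 104, 65.5, 241, 162 and 280.2 in the 10 mM cultures, against 863, 689.7, 833, 1529 and 1213 in the water cultures, a change of -2.58 ± 0.33 (adjusted p = 8.16e-08) toward values below the filter level. Cdh17, a cadherin of liver and intestine, averaged 1892 ± 168 at 10 mM and 5486 ± 699.7 in water, a change of -1.52. F11r, a junctional adhesion molecule, changed by -0.29, its groups overlapped, and the call was lost with ribosomal centring. Its relative Jam3 averaged 2095 ± 159.6 at 10 mM and 556 ± 206 in water and rose by 1.95, and Panx1, a membrane channel, rose by 0.79.

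Integrins and tetraspanins rose in 11 of 34 cases (32.4%) and fell in 10 (29.4%), close to the background. Tspan13 had signals of 3450.3, 3466, 3627, 3483 and 3411 in the 10 mM cultures, against 707, 744, 520.1, 916 and 761 in the water cultures. It rose by 2.25 ± 0.15 (adjusted p = 3.03e-14), and Tspan33 rose by 1.46. Parva, which ties integrins to actin, averaged 653 ± 44.6 at 10 mM and 2804 ± 711 in water, a change of -2.04, and Itga1, a collagen receptor subunit, changed by -1.73. Cd81 had a difference of -0.11 (adjusted p = 0.134), and its sign turned with quantile normalization.

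Histone and high mobility group genes rose in 10 of 19 cases (52.6%) and fell in 4 (21.1%), with a median of 0.60. Asf1b, a histone chaperone of dividing cells, had signals of 468, 421, 476, 437 and 561 in the 10 mM cultures, against 131, 181, 187, 215 and 138 in the water cultures, a change of 1.41 ± 0.30 (adjusted p = 0.000185). Hmgn3, a nucleosome-binding protein, averaged 14790 ± 701 at 10 mM and 6523 ± 609 in water and rose by 1.18. Its relatives Hmgn2 and Hmgn1 moved the other way, Hmgn2 with 9683 ± 317 at 10 mM and 24000 ± 3968 in water, a change of -1.29, and Hmgn1 with a change of -0.29. Hmgb1, a DNA-bending protein, averaged 5958 ± 338 at 10 mM and 13290 ± 1132 in water, a change of -1.15.

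Polycomb and DNA methylation genes held the largest share of rises among the 40 lists, 19 of 34 (55.9%), with 7 falls (20.6%), or 4 with ribosomal centring, and a median of 0.50. Uhrf1, which guides DNA methyltransferase to newly copied DNA, had signals of 1007, 962, 1044, 1040.5 and 794 in the 10 mM cultures, against 255, 153, 214, 159.7 and 121 in the water cultures. The change was 2.36 ± 0.24 (adjusted p = 9.81e-10). Cbx2, a polycomb reader of histone methylation, rose by 1.74 against water values below the filter level. Mbd3, a subunit of a deacetylase complex, averaged 743 ± 146 at 10 mM and 1560 ± 222 in water, a change of -1.06. Ring1, a polycomb ubiquitin ligase, changed by -1.27 (adjusted p = 0.0161), a call lost without 10 mM replicate 2 or 3 and with the mean of its probesets. Rbbp7, a histone-binding subunit, changed by -0.14, and its groups overlapped. That call was lost without 10 mM replicate 1 or 5, without water replicate 4 or 5, with ribosomal centring, with only the compared groups fitted and without the trended prior, and the sign turned with quantile normalization.

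Chromatin remodelling genes fell in 12 of 35 cases (34.3%) and rose in 9 (25.7%), with 9 in each direction under ribosomal centring and 15 lower and 5 higher under quantile normalization. Brd9, a bromodomain subunit of SWI/SNF complexes, had signals of 697, 629, 666, 667 and 810.2 in the 10 mM cultures, against 1892, 1736, 2721, 1837 and 1790.2 in the water cultures. It changed by -1.49 ± 0.11 (adjusted p = 1.68e-12), and water replicate 3 was the highest. Smarcc2, of the same complexes, changed by -0.81, and Smarca5, the motor of another remodeller, rose by 0.73 on its brightest probeset only, with -0.11 and 0.07 on the others. Dpf3 rose by 0.66. Arid1b changed by -0.64 on its brightest probeset against 0.80, 0.14 and -1.16 on the others, in both directions, and the call was lost with the mean of its probesets. Splicing factors fell in 12 of 39 cases (30.8%) and rose in 9 (23.1%), and with quantile normalization 12 fell and 14 rose. Elavl2, a neuronal RNA-binding protein, had signals of 539, 522, 442, 551 and 598 in the 10 mM cultures, against 97.1, 121, 128, 139 and 83.7 in the water cultures, a change of 2.09 ± 0.38 (adjusted p = 2.2e-05) from water values below the filter level. Khdrbs3, of the STAR family, rose by 1.58, likewise from water values under that level. Its relative Khdrbs1 averaged 3218 ± 499 at 10 mM and 7380 ± 535 in water, a change of -1.20, while its other probeset gave 0.12. Hnrnpab averaged 11340 ± 715 at 10 mM and 25830 ± 956 in water, a change of -1.19. Hnrnpa3 had a difference of -0.07 (adjusted p = 0.389) on its brightest probeset against -0.96, -0.79, -0.69 and -0.52 on the others.

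Nucleolar genes fell in 13 of 45 cases (28.9%) and rose in 10 (22.2%), and with ribosomal centring 11 fell and 12 rose. Polr1a, the large subunit of RNA polymerase I, had signals of 752, 437, 570.4, 579 and 564 in the 10 mM cultures, against 1259, 1486, 1927, 1136 and 1190.1 in the water cultures, a change of -1.24 ± 0.15 (adjusted p = 3.68e-08). Ncl, nucleolin, averaged 15920 ± 1375 at 10 mM and 29670 ± 2192 in water, a change of -0.90, and Dkc1, which forms pseudouridine in ribosomal RNA, changed by -1.09. Polr3g, of RNA polymerase III, averaged 8673 ± 908 at 10 mM and 5279 ± 397 in water and rose by 0.71, and Gnl2 rose by 0.72, a call lost with the mean of its probesets. Developmental transcription factors rose in 10 of 31 tested cases (32.3%) and fell in 8 (25.8%), the shares of all genes. Pbx3, a homeobox partner of HOX proteins, had signals of 1464, 1084, 1177, 1245 and 1187 in the 10 mM cultures, against 651, 639, 598, 512 and 487 in the water cultures, a change of 1.07 ± 0.15 (adjusted p = 2.95e-07). Sox17 rose by 1.06. Klf6 averaged 6922 ± 233 at 10 mM and 12460 ± 984 in water, a change of -0.84, with -0.97, called, and -0.08, not called, on its other probesets, and Klf10 averaged 3211 ± 258 at 10 mM and 5949 ± 284 in water, a change of -0.89.

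Autophagy genes rose in 17 of 39 cases (43.6%) and fell in 12 (30.8%), and 6 fell with ribosomal centring. Wipi1, which binds the lipid of forming autophagosomes, averaged 5807 ± 375 at 10 mM and 2270 ± 333 in water and rose by 1.36, with a similar rise on its other probeset. Atg12, which is joined to Atg5 to extend the membrane, averaged 12920 ± 768 at 10 mM and 5268 ± 827 in water and rose by 1.31, and by 1.91 and 1.85 on its other probesets. Ulk2, a kinase that starts the process, had signals of 498, 275, 477, 376 and 606 in the 10 mM cultures, against 1262, 1317, 1500.1, 944 and 1323 in the water cultures. It changed by -1.51 ± 0.20 (adjusted p = 1.64e-07). Atg10, the enzyme that transfers Atg12, averaged 756 ± 76.8 at 10 mM and 1610 ± 273 in water, a change of -1.06. Sqstm1, the cargo receptor p62, averaged 34550 ± 1592 at 10 mM and 45310 ± 3769 in water, a change of -0.39 that was not called with the mean of its probesets.

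Ubiquitin genes rose in 19 of 52 cases (36.5%) and fell in 16 (30.8%). Fbxo6, which directs misfolded glycoproteins to ubiquitin ligases, had signals of 1605, 1062, 1809.6, 1599.8 and 1564 in the 10 mM cultures, against 6645, 6794, 7827, 6455 and 6905 in the water cultures. Its change was -2.19 ± 0.16 (adjusted p = 2.81e-13). Usp2, a deubiquitinase, averaged 924 ± 79.3 at 10 mM and 2915 ± 322 in water, a change of -1.64, against -0.88 on its dimmer probeset. Vhl, which marks hypoxia-inducible factors for breakdown, averaged 5686 ± 383 at 10 mM and 1929 ± 259 in water and rose by 1.56 (adjusted p = 3.44e-16), and Ube2s, of the anaphase-promoting complex, rose by 1.48, against an uncalled 0.41 on its other probeset. Skp1, a common ligase subunit, averaged 54200 ± 3354 at 10 mM and 53190 ± 6036 in water, and its change of 0.03 was not called. Vesicle coat and SNARE genes rose in 24 of 71 cases (33.8%) and fell in 23 (32.4%), and 1 changed by 1 or more. That gene was Stx6, a Golgi and endosome SNARE, with signals of 1925, 2013, 1848, 2089 and 1912 in the 10 mM cultures, against 985, 920.5, 926, 980.0 and 983 in the water cultures. It rose by 1.02 ± 0.10 (adjusted p = 2.01e-10). Snap23, a SNARE of the cell surface, averaged 9510 ± 473 at 10 mM and 4853 ± 751 in water and rose by 0.98. Cltc, the heavy chain of clathrin, averaged 11180 ± 442 at 10 mM and 21630 ± 1554 in water, a change of -0.95, and Copg2, a coatomer subunit, changed by -0.97 on its brightest probeset, against an uncalled -0.02 on the other. Arf1, which recruits coats, changed by -0.31, a call lost with quantile normalization and with the mean of its probesets.

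Mitochondrial import and dynamics genes rose and fell in 17 of 48 cases each (35.4%), with a median of 0.01 that quantile normalization turned. Fis1, an outer membrane protein of mitochondrial fission, had signals of 1936, 2349, 2353, 2232 and 2155 in the 10 mM cultures, against 7391, 6798, 7155, 7091 and 6992 in the water cultures. It changed by -1.68 ± 0.10 (adjusted p = 4.95e-15), whereas Dnm1l, the fission GTPase, rose by 0.88. Polg2, a subunit of the mitochondrial DNA polymerase, averaged 2109 ± 129 at 10 mM and 4995 ± 226 in water, a change of -1.24. Tfb2m, a mitochondrial transcription factor, averaged 5376 ± 291 at 10 mM and 3098 ± 203 in water and rose by 0.79. Hspd1, the matrix chaperonin, averaged 30320 ± 1530 at 10 mM and 45030 ± 4210 in water, a change of -0.57. Apoptosis genes rose in 14 of 37 cases (37.8%) and fell in 7 (18.9%), with a median of 0.14. Bcl2a1, an inhibitor of cell death, had signals of 882, 951, 821, 933 and 898 in the 10 mM cultures, against 151, 271, 82.2, 190.4 and 318 in the water cultures. Its change was 2.18 ± 0.33 (adjusted p = 1.15e-06). Casp6, an executioner caspase, averaged 6104 ± 411 at 10 mM and 1636 ± 322 in water and rose by 1.91. Casp8, an initiator caspase, averaged 528 ± 81.1 at 10 mM and 1196 ± 229.6 in water, a change of -1.15, against -0.58 on its other probeset. Hrk, a death-promoting relative of Bcl2, changed by -0.99. Mcl1 averaged 30890 ± 1539 at 10 mM and 30540 ± 1283 in water, and its change of 0.02 was not called.

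Aquaporins and solute carriers rose in 18 of 61 cases (29.5%) and fell in 20 (32.8%), and 12 of them had a change of -1 or below. Slc26a1, a sulfate exchanger of liver and kidney, averaged 1485 ± 98.2 at 10 mM and 11520 ± 2040 in water, a change of -2.93 (adjusted p = 3.72e-15). Slc37a4, the glucose 6-phosphate carrier of the endoplasmic reticulum, averaged 13340 ± 825 at 10 mM and 27800 ± 2322 in water, a change of -1.06. Slc16a3, a lactate exporter, averaged 2215 ± 162 at 10 mM and 430.4 ± 113 in water and rose by 2.36. Abcc5, an exporter of organic anions, rose by 1.25, a call lost with the mean of its probesets.

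The 48 h cultures are separate wells with water controls of their own. There, 3201 of the 11604 genes were higher (27.6%) and 2582 lower (22.3%) at 10 mM. Of the 3611 genes higher at 24 h, 2561 (70.9%) were also higher at 48 h and 26 were lower. Of the 2896 lower at 24 h, 2062 (71.2%) were also lower and 45 were higher. The change differed between the times for 1489 genes (12.8%) by an interaction term in limma. Among the 214 genes named here 61 had such a difference, and in 53 of those the change was the smaller one at 48 h. Most of them were chosen for a large change at 24 h, which favours a smaller value at another time. Slc30a10, the manganese exporter, changed by -1.48 at 24 h, against a difference of 0.15 at 48 h (interaction adjusted p = 4e-07). Usp2 changed by -1.64 and -0.57 (interaction adjusted p = 1.22e-06), and Uox by -2.23 and -1.23 (interaction adjusted p = 6.12e-05). Some changes were larger later. Selenom rose by 1.22 at 24 h and by 2.05 at 48 h (interaction adjusted p = 0.000463), and Slc37a4 changed by -1.06 and -1.73 (interaction adjusted p = 0.000952). The brightest probeset of Cp rose at 48 h, by 0.57 (adjusted p = 3.12e-07). Among the strongest rises, Stmn1 changed by 3.23 and 2.89, Eno2 by 3.45 and 3.34, and Id1 by 2.57 and 2.72.

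**Figure D4:**
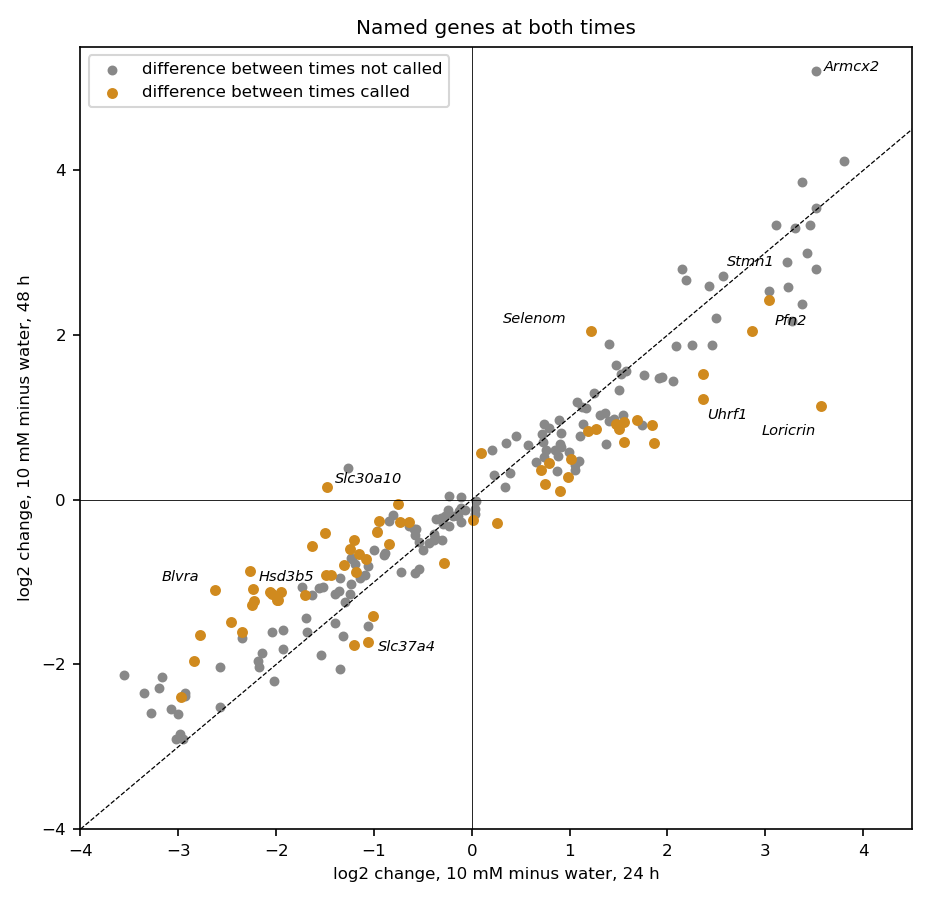
Log2 change of the 214 named genes, 10 mM minus water, at 24 h (horizontal) and 48 h (vertical), with genes whose change differed between the times in orange and the line of equal change dashed. Most points lie near that line. Slc30a10 had a change of -1.48 at 24 h, against 0.15 at 48 h.

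At 24 h, 0.5 mM valproate was compared with the same 5 water cultures, so the comparisons share their controls. At the low dose 3344 genes were called in either direction (28.8%). The genes given here were chosen after their values had been seen. Pfn2 changed by 3.04 at 10 mM, against a difference of 0.08 at 0.5 mM (adjusted p = 0.602). Egr1 changed by 2.86 at 10 mM, against a difference of -0.12 at 0.5 mM (adjusted p = 0.482). Eno2 changed by 3.45 and 1.24 (adjusted p = 3.45e-06), Ifit2 by -2.15 and -0.92 (adjusted p = 5.19e-08), and Myc by -1.36 and -1.06 (adjusted p = 7.4e-10). Bhmt changed by -2.35 at 10 mM and by 0.95 at 0.5 mM (adjusted p = 0.0132), which are opposite directions.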

How the data were processed

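RNA of 30 wells was measured on 1-colour rat expression arrays, 1 array per well. Each deposited value is a linear signal intensity, made by the authors with MAS5 per the submitters' processing notes. On every array the mean after trimming 2% at each end was 1500.53 to 1500.68. Of 31099 probesets, 57 were controls, 20826 had 1 gene symbol, 436 several and 9780 none. No detection calls were used. Values were taken as log2(signal + 16), and 21729 probesets, those whose mean reached the 30th percentile (7.39 on the log2 scale), were fitted together in limma 3.58.1 (R 4.3.3) over all 30 arrays in 6 groups, with a trended prior, 24 residual degrees of freedom and Benjamini-Hochberg adjustment over all probesets tested. The brightest probeset stood for a gene. Tables and plots were made in Python 3.11.15 with pandas 2.3.3 and matplotlib 3.10.9.

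The members and the 40 lists were chosen with earlier results of these data known. Named genes were the 12 largest rises and falls and, in each list, up to 2 rises, up to 2 falls and the member brightest in water. Genes already known from those earlier results were left out of the rises and falls. The member brightest in water was taken whether known or not. Rises and falls had to be called, without overlap between the groups, and at or above the median level in the higher group. The direction of changes was checked under other pseudocounts, scalings, filters and models and with each of the 10 arrays left out. Precision is limited by 5 arrays a group. No 2 arrays correlated above 0.967. The fit was tested on simulated data with known changes. Promoters came from RefSeq (GRCr8), 1 start a gene.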

Additional observations from a re-analysis of the deposited data

Results flagged for a closer look

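Each group of 5 was searched for an array standing apart from the other four in the 47 genes printed array by array. Chance marks about 1 in 20 such groups, and 7 of 94 (7.4%) were marked. In the 10 mM cultures these were Magix in replicate 3 (128, highest), Slco2a1 in replicate 2 (1356, highest) and Fbxo6 in replicate 2 (1062, lowest). In the water cultures they were all replicate 3, with Olr59 (941, lowest), Avpr1a (12.9, lowest), S100a1 (77.7, lowest) and Brd9 (2721, highest). Water replicate 3 also stood apart in the actin 3′ to 5′ ratio (2.76 on the log2 scale), and its part in those values was not tested. The GAPDH 3′ to 5′ ratio stood apart in 10 mM replicate 5 (0.10 on the log2 scale).

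The change at 48 h differed from that at 24 h, by the interaction term, for 20 of the 47 genes. The values are the 48 h change minus the 24 h change on the log2 scale. Among genes that rose at 24 h the difference was -2.43 for Loricrin, -1.17 for Cxcl1, -1.13 for Uhrf1, -0.81 for Egr1, -0.79 for Axin2, -0.73 for Socs7, -0.65 for Slc30a2, -0.62 for Pfn2 and -0.52 for Stx6. Among genes that fell at 24 h it was 1.53 for Blvra, 1.39 for Hsd3b5, 1.15 for Mx2, 1.13 for Inhbe, 1.10 for Ulk2, 0.98 for Dpys, 0.94 for Dhrs3, 0.88 for Urad, 0.83 for Ttpa, 0.58 for Brd9 and 0.52 for Man2a1. In these 20 genes the change was smaller at 48 h than at 24 h. The 47 genes were chosen for a large change at 24 h, which favours a smaller value at another time.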

How the results depend on the processing

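The number of genes called stayed within 1.5 times its value under 22 alternatives tried, other than a minimum change of 1 on the log2 scale. That minimum left 1010 higher, 752 lower and 170 with a change that differed between the times. Leaving out 1 array at a time gave 3417 to 3606 higher, 2746 to 2882 lower and 1299 to 1575 differing genes. Quantile normalization gave 3334 higher and 3200 lower, and ribosomal centring 4030 higher and 2237 lower. The calls of the 214 named genes kept their side of the threshold in 203 cases with quantile normalization and 208 with ribosomal centring. Among genes called in the main fit or the alternative, directions turned for Cd81 (0.12), Rbbp7 (0.083) and Hnrnpa3 (0.15) with quantile normalization. With the mean of a gene's probesets they turned for Asah2 (0.15), Gnas (0.28), Kif16b (0.26) and, to almost no change, Degs1 (0.0006). The last 4 differ by construction, since their probesets disagree. The cause of the others was not tested. Differences of Cmpk1, Cp, Mcl1, Skp1 and Chuk also turned sign under some alternatives, without a call in either fit. The named genes that were not called, other than Chuk, passed the threshold under 1 or more alternatives. Of 1840 list counts, 1735 stayed within 1.5 times. A replicate block by run of 6 arrays in order of array number gave 3628 higher and 2894 lower and changed the call of none of the 214 named genes. The labels pair no cultures between the groups. Signals below the filter level limit what can be said of the size of change.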
